A study of Mus musculus with 15 samples.

Results

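Transthyretin and 5 carriers or receptors of vitamin A, Ttr, Rbp2, Rbp4, Stra6, Crabp1 and Crabp2, were followed through the 3 main endocrine cell types of the mouse islet. The 6 genes are those of 38283 in the expression table that carry these symbols. They were chosen by their symbols with measured values in view, Ttr because its level was far higher in alpha than in delta cells, so every value of Ttr, and every delta against alpha value of the other 5 genes, is given as a description with no test. RNA from 15 FACS-purified samples was amplified and sequenced: Glu-Venus mice gave 5 alpha and 4 beta samples, and Sst-CreXROSA26EYFP/EYFP mice gave 6 delta samples, all of strain C57BL/6 and none given a treatment in the labels. Venus was driven by the proglucagon promoter and marked alpha cells. Beta cells were the Venus-negative cells of the same mice with high scatter and autofluorescence. EYFP appeared where Cre under the Sst promoter had acted, and marked delta cells. Each sample pooled the islets of several mice, and the age of the mice is not stated. Delta cells therefore differed from the other populations in mouse line and gate as well as in cell type, and these cannot be told apart.

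Retinol travels in plasma bound to retinol binding protein 4, the product of Rbp4, and that protein is held in the circulation by transthyretin, which also carries thyroxine. Liver is the main source of both proteins, and transthyretin is also a known product of islet cells. Stra6 encodes a cell surface receptor that takes up retinol from retinol binding protein 4. Inside cells, the protein of Rbp2 holds retinol, mainly in the intestine, and those of Crabp1 and Crabp2 hold retinoic acid, the form that activates nuclear receptors.

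Levels are given as FPKM, the number of fragments scaled to transcript length and to mapped reads, which is a measure per length and so can be set side by side between genes. Differences between cell types are differences of mean log2(FPKM + 1) with their standard errors. Genes with a mean above 1 FPKM in at least 1 cell type were tested (14405 genes), and a gene was called at a Benjamini-Hochberg adjusted p under 0.05 from limma. Of the 6 carriers, 2 passed this filter, Ttr and Rbp4, and 4 did not. Nothing in the labels says that samples of one cell type came from separate sorts, so p-values measure the spread between these samples, which may be in part technical.

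Each sorted population had the markers of its label. Summed FPKM of 5 alpha cell markers, among them Gcg and Irx1, was 184537 to 345025 in alpha samples and at most 1819 in the others. Summed FPKM of 7 beta cell markers was 119448 to 776959 in beta samples and at most 12767 elsewhere, and that of 3 delta cell markers was 101577 to 266365 in delta samples and at most 2428 elsewhere. Between 14761 and 18559 genes were above 0 in a sample. Depth could be read from the steps between low values in 6 samples, at 7.4 to 30.5 M reads, and is unknown in the other 9, including all 4 beta samples. Summed over 85 ribosomal protein genes, FPKM also split the samples into 2 sets, a division chosen after this sum was seen. The sum was 65611 to 140979 in 6 samples (alpha samples 1, 2 and 3, beta sample 2, delta samples 1 and 2) and 7919 to 38775 in the other 9. The split went with depth where depth was known, at 7.4 to 10.8 M reads in 3 samples of the former set and 25.3 to 30.5 M in 3 of the latter, and the effects of depth and of ribosomal protein level cannot be told apart here. Values within each set are given for Ttr and Rbp4. For other genes, a call that was lost in the 9 samples of lower sums is named as such.

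Rbp4 is the carrier for which a test was possible, and its promoters are shown as the sequence from which its transcripts start. The gene (ENSMUSG00000024990) lies on the minus strand of GRCm38 at chr19:38116629-38125281, and its 4 annotated transcripts are all coding. RefSeq gives the gene 2 starts, of which the upstream one lies just outside this annotated span and the downstream one inside it. The windows below are read 5′ to 3′ on the minus strand of GRCm38.p6, with matches to the searched motifs in capitals. FPKM per gene does not separate the starts.

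Rbp4 upstream start, chr19:38125272-38125571: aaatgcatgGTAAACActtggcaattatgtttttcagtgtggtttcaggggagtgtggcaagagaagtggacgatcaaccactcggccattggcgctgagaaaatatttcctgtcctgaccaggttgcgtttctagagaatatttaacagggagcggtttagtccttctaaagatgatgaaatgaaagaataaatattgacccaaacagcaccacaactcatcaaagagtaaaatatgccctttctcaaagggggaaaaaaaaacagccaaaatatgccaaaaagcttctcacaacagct

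Rbp4 downstream start, chr19:38124762-38125061: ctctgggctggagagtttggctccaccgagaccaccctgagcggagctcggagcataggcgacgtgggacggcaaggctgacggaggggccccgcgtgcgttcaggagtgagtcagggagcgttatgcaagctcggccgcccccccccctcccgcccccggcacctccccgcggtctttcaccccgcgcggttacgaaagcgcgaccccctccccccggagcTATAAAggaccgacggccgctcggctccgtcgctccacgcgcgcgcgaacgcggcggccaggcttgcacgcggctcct

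Both strands were searched for TATAAA (the TATA box), GTAAACA (the core bound by forkhead factors such as the FOXA proteins) and AGGTCA (the core site of nuclear receptors). The upstream window held GTAAACA beginning at -241 from the start, and the downstream window held TATAAA at -28. Among all 32851 mouse promoter windows of the same length, 3.65% held GTAAACA, 13.6% held TATAAA and 16.3% held AGGTCA. Windows on chr18, where Ttr lies, were not read for the carriers. Those given here cover 4 of the 6 genes, 8 windows in all. The single window of Rbp2 held TATAAA in 2 places and AGGTCA at -58, and the 1 window of Crabp1 and 4 windows of Stra6 held no match to these letters. A match is a description of the sequence and not a site of binding.

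Ttr was among the most abundant transcripts of alpha cells. In the 5 alpha samples it measured 14071, 18658, 16366, 10428.5 and 18704 FPKM. The gene (ENSMUSG00000061808; chr18:20665280-20674321, plus strand, 1 transcript of 4 exons) held rank 13 by mean level among all genes of the table in these cells, with a mean of 15646 ± 3487 FPKM (SD, n = 5). The 4 beta samples had 187, 1186, 139 and 463 FPKM, a mean of 494 ± 483 (SD, n = 4) at rank 103, and beta sample 2 was the highest of them. Delta samples ran from 44.0 over a median of 72.0 to 124 FPKM, a mean of 73.4 ± 28.4 (SD, n = 6) at rank 719. No 2 cell types overlapped, and the order was alpha, beta, delta.

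The mean of Ttr in alpha cells was 213-fold that in delta cells, and the log2 difference of delta from alpha was -7.76 (SE 0.503). Against beta cells the mean in alpha cells was 31.7-fold, with a log2 difference of beta from alpha of -5.46 (SE 0.557). Beta cells in turn had 6.72-fold the mean of delta cells, with a log2 difference of delta from beta of -2.30 (SE 0.536). Beta sample 2 set much of the beta mean. Without it, alpha cells had 59.5-fold the mean of beta cells and beta cells 3.58-fold that of delta cells. Over all tested genes, delta cells had 5.33% called higher and 1.48% called lower relative to alpha cells, but no call is read for Ttr, which was selected on this difference. In these bulk samples, fewer cells with a transcript and less of it per cell cannot be told apart.

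Within the ribosomal protein sets the groups stayed apart. In the set of higher sums, Ttr was 14071 to 18658 FPKM in 3 alpha samples, 1186 in the single beta sample and 71.0 to 124 in 2 delta samples. In the set of lower sums it was 10428.5 to 18704 FPKM in 2 alpha samples, 139 to 463 in 3 beta samples and 44.0 to 77.7 in 4 delta samples. The ratio of alpha to delta means was 167 in the former set and 238 in the latter. That of alpha to beta means was 13.8 and 55.4, and that of beta to delta means 12.1 and 4.29, with 1 beta sample in the former set.

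**Figure D1:**
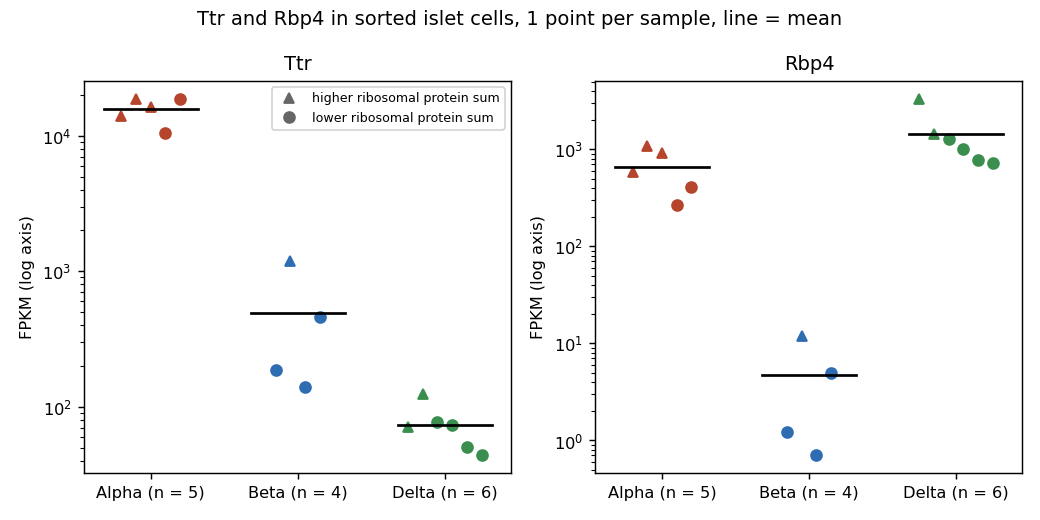
Levels of Ttr (left) and Rbp4 (right) in FPKM on a log axis, 1 point per sample, for 5 alpha, 4 beta and 6 delta samples. Lines are means, and triangles and circles mark samples with a higher or lower sum of ribosomal protein FPKM. Ttr lies in 3 separate ranges, whereas Rbp4 is high in alpha and delta cells and low in beta cells.

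Glucagon, the product of Gcg, is the hormone of alpha cells, and its promoter drove the gate, so Ttr and Gcg outside alpha cells were set side by side. Gcg in beta samples was 0.0608% to 0.666% of its alpha mean, whereas Ttr in the same samples was 0.891% to 7.58% of its own. In delta samples Gcg was 0.0866% to 0.281% and Ttr 0.281% to 0.796% of the alpha mean. Counted per 1000 FPKM of Gcg, Ttr was 49.1 to 66.4 FPKM in alpha samples, 652 to 1547 in beta samples and 111 to 212 in delta samples. The ratio of Ttr to Gcg was higher in all 4 beta and all 6 delta samples than in any alpha sample, and higher in beta than in delta samples. Irx1, a transcription factor of alpha cells, was 0 to 0.0495% of its alpha mean in beta samples and 0.267% to 7.04% in delta samples. Irx2, a related factor, was 0.145% to 4.69% in beta and 2.61% to 17.5% in delta samples, so alpha cell markers differed among themselves, and the part of alpha cell RNA in the Ttr of the other samples was not tested.

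Ttr is also a transcript of hepatocytes, and hepatocyte markers were checked beside it. The summed FPKM of 6 such genes was 12.3 to 68.2 in alpha, 0.589 to 17.9 in beta and 0.985 to 17.6 in delta samples. Apoa2 made up most of it in alpha samples, at 11.3 to 66.0 FPKM, and was 0.362 to 17.3 in beta and 0.826 to 17.1 in delta samples. The part of hepatocyte RNA in the levels of Ttr and Rbp4 was not tested. Albumin (Alb) was at most 2.2 FPKM, and Ahsg, which encodes fetuin A, was listed at 0 in all 15 samples.

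Across the 15 samples, the genes whose log2(FPKM + 1) followed that of Ttr most closely among the 14405 were Ppp1r3b (Pearson r = 0.959), which encodes a glycogen-targeting subunit of protein phosphatase 1, Gcg (r = 0.952) and Hapln1 (r = 0.952), which encodes a link protein of the extracellular matrix. Their means in alpha, beta and delta cells were 4.70, 1.12 and 0.0194 FPKM for Ppp1r3b and 29.5, 5.90 and 1.84 FPKM for Hapln1. Both had the order of Ttr, alpha above beta above delta. The 15 points share libraries and 3 cell types, and the correlations are descriptions.

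Rbp4 had another pattern, high in alpha and delta cells and low in beta cells. The alpha samples had 591, 1094, 918, 266 and 405 FPKM, a mean of 655 ± 346 (SD, n = 5) at rank 126. The beta samples had 1.23, 11.9, 0.706 and 5.01 FPKM, a mean of 4.71 ± 5.15 (SD, n = 4) at rank 6940. Delta samples ran from 728 over a median of 1148 to 3317 FPKM, a mean of 1426 ± 968 (SD, n = 6) at rank 40. No beta sample came near the others, while the ranges of alpha and delta samples overlapped.

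Rbp4 fell by 7.12 on the log2 scale in beta relative to alpha cells (SE 0.639, limma adjusted p = 2.8e-06), where 4.82% of all tested genes were called lower and 2.84% higher. The mean in alpha cells was 139-fold that in beta cells, and all 4 beta samples lay below all 5 alpha samples. Delta cells were higher than beta cells by 8.22 (SE 0.615, limma adjusted p = 2.1e-07), a 303-fold difference of means, with all 6 delta samples above all 4 beta samples. In that comparison 11.7% of tested genes were called higher and 2.99% lower in delta cells. Rbp4 was the 1 carrier tested and called in each of these comparisons. Without beta sample 2, the highest of its group, the folds over beta cells were 283 for alpha and 615 for delta cells.

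Delta cells had 2.18-fold the alpha mean of Rbp4, a log2 difference of 1.09 (SE 0.577). Pooled, the groups overlapped, because alpha samples 2 and 3 (1094 and 918 FPKM) were above the lowest delta samples. Within the ribosomal protein sets they did not. In the set of higher sums, 3 alpha samples had 591 to 1094 FPKM and 2 delta samples 1449 to 3317, a ratio of delta to alpha means of 2.75. In the set of lower sums, 2 alpha samples had 266 to 405 FPKM and 4 delta samples 728 to 1279, a ratio of 2.83. Delta sample 1 had the highest value, 3317 FPKM against 1449 in the next, and without it the ratio in the set of higher sums was 1.67.

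Ttr and Rbp4 stood in opposite proportion in alpha and delta cells. The ratio of Ttr to Rbp4 FPKM was 17.1 to 46.1 in alpha samples and 92.3 to 197 in beta samples. In delta samples the reverse ratio, Rbp4 to Ttr, was 11.6 to 46.7. The transcript of the retinol carrier thus exceeded that of its plasma partner in all 6 delta samples and in none of the 9 others.

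Somatostatin, the product of Sst, is the hormone of delta cells, and Ppy encodes pancreatic polypeptide, the hormone of PP cells. Alpha samples held 0.698% to 1.49% of the delta mean of Sst but 18.6% to 76.7% of that of Rbp4. Rbp4 per 1000 FPKM of Sst was 233 to 612 in alpha, 13.8 to 70.4 in beta and 5.44 to 12.8 in delta samples. Ppy was high in the same samples as Rbp4, at 17728 to 41392 FPKM in alpha, 10857 to 48600 in delta and 16.9 to 98.1 in beta samples. Rbp4 per 1000 FPKM of Ppy was 10.6 to 26.4 in alpha, 23.3 to 296 in beta and 29.8 to 109 in delta samples. The part of PP cells in the Rbp4 level was not tested.

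**Figure D2:**
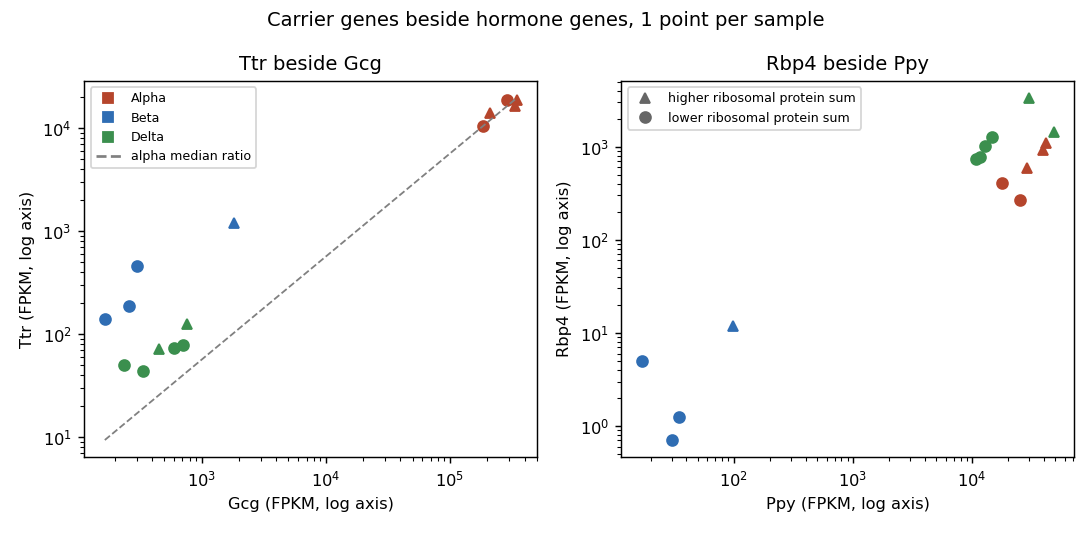
Ttr beside Gcg (left) and Rbp4 beside Ppy (right), both axes in FPKM on log scales, 1 point per sample coloured by cell type. The dashed line is the median ratio of alpha samples, 56.5 FPKM of Ttr per 1000 of Gcg, and all beta and delta points lie above it. Rbp4 and Ppy are both high in alpha and delta samples and low in beta samples.

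Among the 14405 genes, the 3 most like Rbp4 over the 15 samples included Cdo1 (Pearson r = 0.986), which encodes cysteine dioxygenase, and Plekhb1 (r = 0.979). Cdo1 averaged 20.6, 1.67 and 28.2 FPKM in alpha, beta and delta cells, and Plekhb1 averaged 30.5, 2.23 and 62.5 FPKM. Both were lowest in beta and highest in delta cells by mean, as was Rbp4.

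The 4 remaining carriers were at or near 0. Stra6, the receptor (ENSMUSG00000032327; chr9:58063788-58153996, plus strand, overlapping Ccdc33 and Gm16131), was listed at 0 FPKM in all 15 samples. Crabp1 (ENSMUSG00000032291; chr9:54764748-54773110, plus strand) was also at 0 in all 15. Rbp2 (ENSMUSG00000032454; chr9:98486115-98509781, plus strand, overlapping Gm37113) was above 0 in 2 samples, at 0.154 FPKM in beta sample 1 and 0.190 in delta sample 1. Crabp2 (ENSMUSG00000004885; chr3:87948666-87953376, plus strand) was above 0 in delta samples 1 and 4, at 0.123 and 0.159 FPKM. In the 6 samples of known depth, 1 read was worth 0.0544 to 0.224 FPKM for Rbp2, 0.0449 to 0.185 for Crabp2, 0.0545 to 0.224 for Crabp1 and 0.0114 to 0.0470 for Stra6. By the depth of the sample itself, Rbp2 in delta sample 1 came to about 1.24 reads, Crabp2 in delta sample 1 to about 0.973 and Crabp2 in delta sample 4 to about 2.94, while the depth of beta sample 1 is unknown. In samples of known depth the 4 transcripts were thus at 0 or at a few reads, and no difference between cell types is read for them.

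A list of 56 further genes of retinoid uptake, storage, oxidation, signalling and response was set beside the carriers. Of these, 25 were tested, 31 were too low and 6 of the latter were at 0 in all samples. In beta against alpha cells 2 of the 25 were called higher and 2 lower, beside 2.84% and 4.82% of all tested genes, with a median log2 difference of -0.13 against -0.13 over all tested genes. In delta against alpha cells 5 were called higher and 3 lower, beside 5.33% and 1.48%, with a median of 0.36 against 0.13. In delta against beta cells 6 were called higher and 2 lower, beside 11.7% and 2.99%, with a median of 0.69 against 0.30. Of the higher calls in delta cells, 4 in each comparison were of genes that passed the filter through their delta mean alone, so that they had to be higher there, and no test is read for them. With quantile normalization the calls were 1 higher and 3 lower in both comparisons of delta cells. With median-ratio size factors they were 3 higher and 3 lower against alpha and 4 higher and 3 lower against beta cells. These counts can include the 4 genes, and shares of all tested genes are given for the main fit only. A change in the list therefore cannot be told apart from a change over the whole table. In the main fit without the 4 genes, delta cells had 1 gene called higher against alpha cells and 2 against beta cells.

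**Figure D3:**
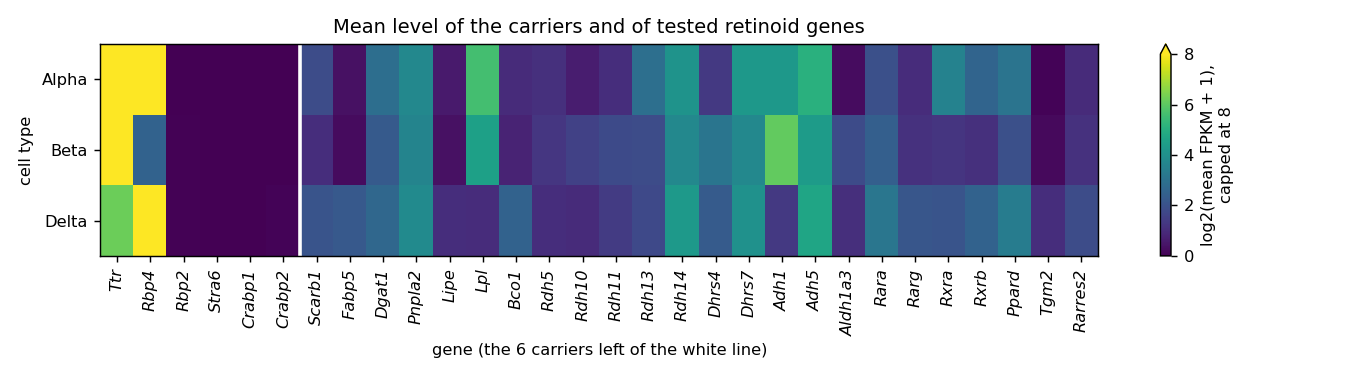
Mean level of the 6 carriers (left of the white line) and of tested genes of the retinoid list in each cell type, as log2(mean FPKM + 1) with colours capped at 8. Ttr and Rbp4 are the brightest columns, Rbp4 is dim in beta cells, and the other 4 carriers are dark in all 3 cell types.

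Among genes of cellular uptake and transport, Fabp5, a fatty acid binding protein that can carry retinoic acid to PPARδ, was 1.36 to 7.34 FPKM in delta samples and at most 0.693 in the others. Its log2 differences were 1.74 from alpha (SE 0.335) and 1.88 from beta cells (SE 0.357). Fabp5, Bco1 and Tgm2 passed the filter through their delta means alone, and their values are descriptions. Scarb1, a lipoprotein receptor that also takes up carotenoids, was not called in any comparison.

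Of 8 genes of retinyl ester and carotene metabolism, 5 were tested. Lpl, the lipoprotein lipase that also frees retinol from retinyl esters of lipoproteins, was 28.3 to 84.1 FPKM in alpha, 3.94 to 41.2 in beta and 0.664 to 1.32 in delta samples. It fell in delta cells, with log2 differences of -4.52 from alpha (SE 0.475, limma adjusted p = 1.0e-05) and -3.10 from beta cells (SE 0.506, limma adjusted p = 0.000611). Bco1, the enzyme that cleaves beta-carotene to retinal, was 2.05 to 6.70 FPKM in delta samples, 0 to 3.44 in alpha and 0.277 to 1.39 in beta samples. Its log2 differences were 1.73 from alpha (SE 0.387) and 1.68 from beta cells (SE 0.413), and the delta and alpha samples overlapped.

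Oxidation of retinol to retinal is shared by many dehydrogenases, of which 9 of 17 listed were tested. Adh1, a class I alcohol dehydrogenase, was 32.1 to 134 FPKM in beta, 10.9 to 28.1 in alpha and 0.181 to 4.18 in delta samples. It fell in delta cells, with log2 differences of -4.71 from beta (SE 0.456, limma adjusted p = 3.9e-06) and -3.03 from alpha cells (SE 0.427, limma adjusted p = 0.000203). Relative to alpha cells, Adh1 was higher in beta cells by 1.68 (limma adjusted p = 0.0406), a call that was lost in 16 of 24 alternative fits, 11 of them without 1 sample. Among the others was the fit of the 9 samples of lower ribosomal protein sums. Dhrs4, a dehydrogenase and reductase that acts on retinal, rose in beta relative to alpha cells by 1.76 (SE 0.418, limma adjusted p = 0.0173), from 0.0852 to 2.97 FPKM in alpha samples to 3.79 to 13.6 in beta samples. That call was lost without beta sample 4, with only the 2 cell types fitted and in the 9 samples of lower ribosomal protein sums (adjusted p over all alternatives 0.00282 to 0.134).

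The enzymes that turn retinal into retinoic acid were low. Of 5 retinaldehyde dehydrogenases, Aldh1a3 alone passed the filter, at 0 to 0.417 FPKM in alpha, 0.125 to 6.94 in beta and 0.241 to 2.37 in delta samples, and it was not called in any comparison. Aldh1a1 was above 0 in all 6 delta samples, at 0.0229 to 0.717 FPKM, and listed at 0 in the 9 others. Aldh1a2 reached 0.550 FPKM in alpha sample 5, Aldh1a7 was above 0 in delta sample 2 only (0.0534), and Aldh8a1 was at 0 throughout. None of 4 enzymes that break down retinoic acid passed the filter, and Cyp26a1 was listed at 0 in all samples.

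Retinoid receptors were present in all 3 cell types, and 5 of 7 were tested. Rxra, a partner of many nuclear receptors, was highest in alpha cells, at 5.96 to 19.2 FPKM against 0.891 to 1.95 in beta and 0.636 to 5.27 in delta samples. It fell relative to alpha cells, by log2 differences of -2.23 in beta (SE 0.391, limma adjusted p = 0.00189) and -1.47 in delta cells (SE 0.353, limma adjusted p = 0.0158), the latter call being lost without alpha sample 1 and in the 9 samples of lower ribosomal protein sums (adjusted p over all alternatives 0.00367 to 0.0921). Rxrb had a log2 difference of -1.47 in beta against alpha cells (limma adjusted p = 0.0200) and of 1.39 in delta against beta cells (limma adjusted p = 0.0123). The former call was lost without beta sample 1 or beta sample 4 and with only the 2 cell types fitted, and the latter without beta sample 4 and under quantile normalization (adjusted p of up to 0.0907 and 0.0878). Rarg, a retinoic acid receptor, was 2.74 to 4.91 FPKM in delta samples and at most 2.38 in the others, and was called higher in delta cells by 1.20 over alpha (limma adjusted p = 0.0247) and by 1.06 over beta cells (limma adjusted p = 0.0403). These calls were lost in 7 and 14 of 23 alternative fits, among them 4 and 9 of 15 without 1 sample. The call against alpha cells was also lost in the 9 samples of lower ribosomal protein sums.

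The other receptors showed no call. Rara measured 0.275 to 5.46, 1.21 to 11.1 and 4.41 to 12.1 FPKM in alpha, beta and delta samples. Ppard, the receptor that can respond to retinoic acid brought by Fabp5, measured 0.0591 to 15.6, 1.79 to 4.18 and 3.79 to 14.4 FPKM. Rarb was at most 0.723 FPKM, and Rxrg was at 0 in all but alpha samples 1 and 3, with 0.0584 and 4.00 FPKM. Among 6 genes induced by retinoic acid, 2 were tested. Tgm2, a transglutaminase, was 0.329 to 1.66 FPKM in delta samples and at most 0.228 in the others, with log2 differences of 0.95 from alpha (SE 0.238) and 0.80 from beta cells (SE 0.253) as a description. Rarres2, which encodes chemerin, was not called.

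**Figure D4:**
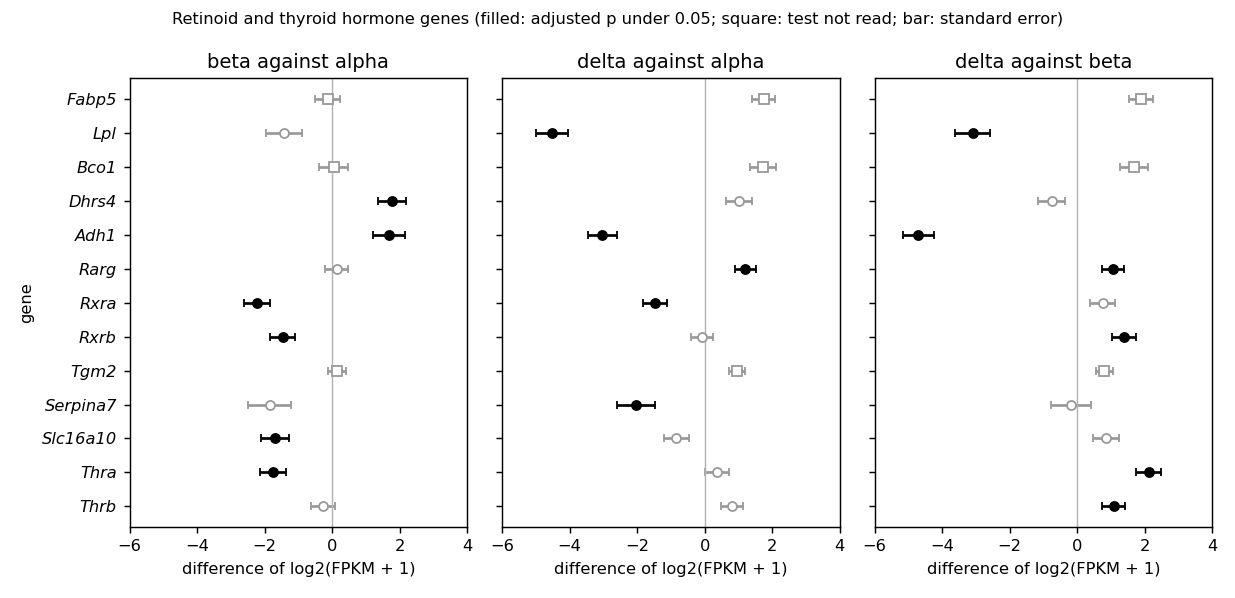
Differences of mean log2(FPKM + 1) between cell types for genes of the retinoid and thyroid hormone lists called in at least 1 comparison, with bars of 1 standard error. Filled points have an adjusted p under 0.05, and squares are genes that passed the filter through 1 cell type alone, whose test is not read. Lpl and Adh1 lie furthest below 0 in both comparisons of delta cells, and Thra and Rxrb are lower in beta cells than in either other type.

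Since transthyretin carries thyroxine, 12 genes of thyroid hormone transport, activation and response were also examined, of which 6 were tested. In beta against alpha cells 2 were called lower, beside 4.82% of all tested genes. In delta against alpha cells 1 was called lower, beside 1.48%, and in delta against beta cells 2 were called higher, beside 11.7%. Thra, a thyroid hormone receptor, was 1.13 to 2.61 FPKM in beta samples, 4.52 to 17.3 in alpha and 5.59 to 17.2 in delta samples. Its log2 difference was -1.75 in beta against alpha cells (SE 0.391, limma adjusted p = 0.0116; 0.0592 with only the 2 cell types fitted) and 2.11 in delta against beta cells (SE 0.377, limma adjusted p = 0.00120). Slc16a10, a transporter of aromatic amino acids and thyroid hormone, was 62.2 to 159 FPKM in alpha and 18.6 to 46.6 in beta samples and had a log2 difference of -1.69 in beta cells (limma adjusted p = 0.0191), a call lost without beta sample 1 and with only the 2 cell types fitted (adjusted p over all alternatives 0.00396 to 0.126).

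Serpina7 encodes thyroxine-binding globulin, another plasma carrier of the hormone. It was 8.23 to 62.9 FPKM in alpha, 1.21 to 18.4 in beta and 2.81 to 7.45 in delta samples. The log2 difference of delta from alpha cells was -2.04 (SE 0.567, limma adjusted p = 0.0392). All 6 delta samples lay below all 5 alpha samples, but the call was lost in 12 of 24 alternative fits, 9 of them without 1 sample. Among the others was the fit of the 9 samples of lower ribosomal protein sums (limma adjusted p over all alternatives 0.0117 to 0.557). Alpha samples 1, 2 and 3, of the higher sums, had 32.2, 35.9 and 62.9 FPKM, and alpha samples 4 and 5 had 8.23 and 9.23. Thrb, the other receptor, rose by 1.08 in delta relative to beta cells (limma adjusted p = 0.0452), and this call was lost in 14 of 23 alternative fits, 9 of them without 1 sample.

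Markers of other cell types were also summed. The summed FPKM of 7 acinar cell markers was 20.9 to 551 in delta samples, 0.122 to 91.8 in alpha and 0.0447 to 19.4 in beta samples. Cela1, an elastase, was the 1 acinar marker called, higher in delta than in both other cell types (limma adjusted p = 0.00187 against alpha and 0.000194 against beta). The summed FPKM of 5 duct cell markers was 25.3 to 172 in alpha, 8.56 to 24.2 in beta and 19.8 to 99.8 in delta samples, made up mostly of Spp1 and Krt7. The other duct markers were low and went different ways: Sox9 was 0.112 to 2.33 FPKM in delta samples and at most 0.0131 elsewhere, Cftr was above 0 in 5 delta samples and in no other, and Krt19 was at 0 in all 6 delta samples and at most 4.27 FPKM elsewhere. Endothelial markers (5 genes) summed to 0.310 to 1.04 in delta, 0.0294 to 0.243 in alpha and 0.0231 to 0.119 in beta samples. Markers of macrophages and other leukocytes (5 genes) summed to 15.9 to 44.3 in delta, 8.63 to 27.6 in alpha and 1.35 to 21.9 in beta samples. C1qa made up most of each sum and was called higher in delta than in beta cells (limma adjusted p = 0.0278). Ptprc was at most 0.0581 and Csf1r at most 0.251 FPKM in any sample. Markers of stellate cells and pericytes (8 genes) summed to 1.93 to 4.95 in alpha, 0.0972 to 0.908 in beta and 0.289 to 1.22 in delta samples. Col1a2 was at 0.848 to 3.79 FPKM in alpha samples and at most 0.0576 elsewhere, whereas Col1a1 and Pdgfra were at 0 in every sample. The part of these cell types in the results was not tested.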

How the data were processed

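The authors aligned single-end reads to GRCm38 with TopHat2 (2.0.8 in the submitters' processing notes, while the methods of the paper name another release). Cufflinks 2.2.1 gave the FPKM values they deposited, in 1 table of 38283 genes and 15 samples. The annotation release is not given in the sources used here. The authors ran edgeR on raw counts, which were not used here, so the test planned for normalized values was run. RNA was amplified before library preparation, which can distort the levels of low transcripts.

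Groups came from the sample labels. limma 3.58.1 (R 4.3.3; eBayes with trend) was fitted to log2(FPKM + 1) of all 15 samples for 14405 genes with a mean above 1 FPKM in at least 1 cell type, and p-values were adjusted by the Benjamini-Hochberg method over all of them. The script was tested on simulated data. Fold changes on this scale understate the change of low genes. Named were the 6 carriers, every listed retinoid or thyroid hormone gene with an adjusted p under 0.05, all retinoid receptors and retinaldehyde dehydrogenases, the 3 genes most alike to Ttr and to Rbp4, and marker genes beside a result. A few genes that this rule selects are not reported here, though the counts over lists include them. The carriers and gene lists were chosen with earlier results of these data known. Depth was read in 6 samples from the steps of low FPKM values, since 1 read gives the same step for genes of like length. Gene positions are from a GENCODE annotation of GRCm38 and promoter windows from RefSeq. Other pseudocounts, filters, scalings, sample sets and covariates were tried as alternatives. Python 3.11.15, numpy 2.4.6, pandas 2.3.3 and matplotlib 3.10.9 were used for the remaining steps.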

Additional observations from a re-analysis of the deposited data

Results flagged for a closer look

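Of 64 groups of 4 to 6 samples examined for 28 genes, 8 held a sample far from the others by Dixon's criterion. For normally spread values chance flags about 1 in 20, or 3.2 groups. A group at 0 but for 1 sample is always flagged, as for Rbp2 and Aldh1a7, so the excess over 3.2 is not read. Rbp4 in delta sample 1 was 3317 FPKM, with the next at 1449. Rbp2 was 0.154 FPKM in beta sample 1 and 0.190 in delta sample 1, with all others of each group at 0. Rxrb in alpha sample 4 was 9.39 FPKM, with the next at 4.26. Alpha sample 3 stood apart for Rxrg (4.00 against 0.0584 FPKM) and Tgm2 (0.213 against 0.0147). Aldh1a2 in alpha sample 5 was 0.550 FPKM against 0.0307 in the next, and Aldh1a7 in delta sample 2 was 0.0534 with the others at 0.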

How the results depend on the processing

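Ttr and Rbp4 kept their direction, and Rbp4 its calls, in all 24 alternative fits of each comparison. The log2 difference of Ttr ranged from -6.05 to -4.83 for beta against alpha, from -7.93 to -7.39 for delta against alpha and from -2.74 to -1.71 for delta against beta cells. That of Rbp4 ranged from -7.67 to -6.60, from 0.81 to 1.82 and from 7.79 to 8.76. With a replicate block, Rbp4 differed by -7.29 in beta against alpha (limma adjusted p = 0.000199) and by 8.54 in delta against beta cells (adjusted p = 4.8e-05). Same-numbered samples correlated at -0.152 to 0.281 over 13 pairs, and the numbers were not taken to pair the samples. Most of these pairs held a delta sample, from another mouse line, so a pairing of alpha with beta samples was not tested apart. With a pseudocount of 0.1, Rbp2 differed by 0.34 and 0.26 from alpha in beta and delta cells, and Crabp2 in delta cells by 0.42 from either.

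The count of called retinoid genes, 4 in beta against alpha cells, was 1 when only the 2 cell types compared were fitted and 1 to 4 when 1 sample was left out. In delta against alpha cells the 8 calls (5 higher, 3 lower) became 3 with a mean over 5 FPKM (0 higher, 3 lower), 4 with quantile normalization (1 higher, 3 lower), 4 in the 9 samples of lower ribosomal protein sums (2 higher, 2 lower; an alternative added after seeing the data) and 6 to 8 without 1 sample. In delta against beta cells the 8 (6 higher, 2 lower) became 3 with the same filter (1 higher, 2 lower), 4 with quantile normalization (1 higher, 3 lower), 5 to 9 without 1 sample, and 10 in the 9 samples of lower ribosomal protein sums (8 higher, 2 lower). The thyroid hormone calls were 0 in beta against alpha cells with only the 2 cell types fitted (limma, 3 at an unadjusted p under 0.05) and 1 to 3 without 1 sample. In delta against alpha cells they were 0 without a filter (4 unadjusted) and 0 with the replicate block (3 unadjusted), 2 with median-ratio size factors (both lower), 2 with the ribosomal set as a covariate (1 higher, 1 lower), 1 in the 9 samples of lower ribosomal protein sums, where the called gene was higher and not lower, and 0 to 1 without 1 sample (2 to 4 unadjusted). In delta against beta cells they were 1 without a filter, with a mean over 5 FPKM, with the replicate block and with either scaling, and 1 to 3 without 1 sample. Shares of all tested genes are not given for these alternatives, so a change in a list cannot be told apart from one over the whole table. The retinoid counts can include genes that passed the filter through their delta mean alone. The cause of these changes was not tested. Median-ratio scaling moved the median of all genes by 0.18, -0.13 and -0.31 in the 3 comparisons, and quantile normalization by 0.12, -0.19 and -0.30. No called gene changed direction; the difference of Rbp2 between delta and beta cells, which was not tested, lay between -0.08 and 0.04 over its alternatives. Unknown depth in 9 samples limits what can be said of the carriers at 0.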
